A study of Arabidopsis thaliana with 12 samples.

Results

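Late embryogenesis abundant (LEA) proteins are hydrophilic proteins that plant embryos accumulate as they dry out. The 51 LEA genes of the Arabidopsis thaliana genome were taken by gene identifier from a table of 32833 genes, with the dehydrins, EM1, EM6, COR15A, COR15B and RAB18 among them. They were sorted by hand, without a search of their proteins for domains, into the domain-based groups in common use: LEA_4 (18 genes), dehydrins (10), the seed maturation protein group SMP (6), LEA_3 (4), LEA_1, LEA_2 and PvLEA18 (3 each), LEA_5 and AtM (2 each). RNA was sequenced from freshly harvested seeds of the wild-type ecotype Col-0 and of erf4-1, described in the labels as a knockout of ERF4 in the Col-0 background. Seeds were taken either dry or after 6 h of imbibition, with 3 libraries in each of the 4 groups. ERF4 encodes an ethylene response factor that represses transcription.

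Most LEA genes are switched on late in seed maturation by abscisic acid (ABA) and by the seed regulators ABI3 and ABI5, and their proteins help membranes and other proteins to survive the loss of water. ABI5 and related bZIP factors bind the ABA-responsive element (ABRE), and ABI3 and FUS3 bind the RY repeat. Other family members, among them COR47, ERD10 and the COR15 genes, are known from leaves, where cold or drought induces them. After imbibition the stored LEA transcripts are degraded, and the seed loses its desiccation tolerance as germination proceeds.

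The promoter windows of 2 members are shown, chosen by the calls of these genes and not by their motifs. HIRD11 was the member called between the genotypes and AT5G27980 had the largest called fall on imbibition in Col-0. The windows are the 250 bases before the annotated gene start, read from TAIR10.1 on the strand of the gene and given 5′ to 3′. Each was searched on both strands for the ABRE core ACGTG, the G-box CACGTG and the RY repeat CATGCA, and capitals mark a match.
HIRD11: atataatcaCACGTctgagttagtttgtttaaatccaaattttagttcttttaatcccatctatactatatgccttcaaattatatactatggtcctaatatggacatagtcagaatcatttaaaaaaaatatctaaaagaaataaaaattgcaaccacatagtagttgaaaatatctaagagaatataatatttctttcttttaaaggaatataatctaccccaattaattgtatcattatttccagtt
AT5G27980: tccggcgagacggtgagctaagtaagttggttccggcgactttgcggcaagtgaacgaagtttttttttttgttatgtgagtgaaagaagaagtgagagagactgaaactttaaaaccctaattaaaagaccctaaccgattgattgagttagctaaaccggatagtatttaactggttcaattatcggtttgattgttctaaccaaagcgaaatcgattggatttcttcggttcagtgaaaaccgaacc
The HIRD11 window, chr1:20310851-20311100 on the minus strand, holds 1 ABRE core, at -241 from the gene start. The AT5G27980 window, chr5:10016880-10017129 on the minus strand, holds none of these motifs.

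Over the family, 36 of 51 windows (70.6%) held an ABRE core on either strand, against 21.8% of all 32546 nuclear promoter windows of the same length. At least 2 cores stood in 29 member windows, where a G-box counts as 2 because it reads as a core on both strands, against 8.07% of all windows. The G-box itself stood in 22 members (43.1%, against 5.9%) and the RY repeat in 9 (17.6%, against 8.78%). The dehydration-responsive element core stood in 7 members as GCCGAC (13.7%, against 2.5%) and in 10 as ACCGAC (19.6%, against 4.46%). The GCC box GCCGCC, the element that ERF factors are known to bind, was found in 0 member windows and in 1.9% of all windows. ABRE cores were found in 15 of 18 LEA_4 windows, 7 of 10 dehydrin windows, 4 of 6 SMP windows and all 3 LEA_1 windows, but in 1 of 4 LEA_3 windows and 1 of 3 PvLEA18 windows. A match of letters in these windows is a description and was not tested as a binding site.

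Total counts were between 31787283 and 42590777 per library, so that the floor of 3 counts corresponded to 0.0604 to 0.121 CPM (counts scaled to library size with TMM factors). Nothing in the labels says whether replicates came from separate plants, so p-values measure the spread between these libraries, which may be technical. The ERF4 transcript went against the label in part: in dry seeds of erf4 it stood at 27.7, 64.3 and 109% of the Col-0 mean and in imbibed seeds at 9.3, 39.2 and 83.3%, and it was not called in either state (log2 fold change -0.58, edgeR adjusted p = 0.691, and -1.18, edgeR adjusted p = 0.387). The groups are therefore given as libraries labelled erf4. Seed markers were abundant in all groups (summed means 78600 to 192000 CPM over 8 genes, none at 0). Their dry sums were lower in all libraries labelled erf4 (125000 to 152000 CPM) than in Col-0 (164000 to 223000 CPM), with none of the 8 called between the genotypes. Of 10 pollen markers, 7 were called lower in dry libraries labelled erf4 (summed means 303 against 48.2 CPM, with MGH3 at 0 in the latter), and in imbibed seeds the sums were 7.32 and 6.43 CPM. Summed levels of 6 leaf photosynthesis genes ranged from 40.9 to 56.5 CPM in dry Col-0, 61.6 to 183 in dry erf4 and 40.1 to 63.8 in imbibed Col-0, with 91.6 to 137 in imbibed erf4, mostly RBCS1A, with LHCB2.1 at 0 in imbibed erf4. Summed levels of 3 endosperm genes were lowest in replicate 1 labelled erf4, at 3970 CPM dry and 1080 imbibed, where the other libraries of the same state held at least 13300 and 5050 CPM. Nearly all of this sum was EPR1. The other two, EXPA2 and MAN7, stood higher in all imbibed libraries labelled erf4 than in imbibed Col-0 (3.47 ± 1.07, edgeR adjusted p = 0.199, and 0.79 ± 0.27, edgeR adjusted p = 0.217, as log2 fold changes without a call).

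LEA genes made up 5.99% ± 0.902 (SD, n = 3) of all counts in dry Col-0 and 3.61% ± 0.47 after imbibition. In the libraries labelled erf4 they made up 7.82% ± 1.74 dry and 2.63% ± 0.193 imbibed. By library the shares were 5.11, 5.94 and 6.92% in dry Col-0, 6.97, 9.82 and 6.67% in dry erf4 and 3.69, 3.10 and 4.03% in imbibed Col-0, with 2.66, 2.81 and 2.42% in imbibed erf4. Dry and imbibed libraries did not overlap in either genotype. Between the genotypes the dry shares overlapped, with replicate 2 labelled erf4 above all others, and the imbibed shares did not overlap, with all 3 libraries labelled erf4 below all 3 of Col-0. In bulk seeds, fewer cells of a type and less RNA per cell cannot be told apart.

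**Figure D1:**
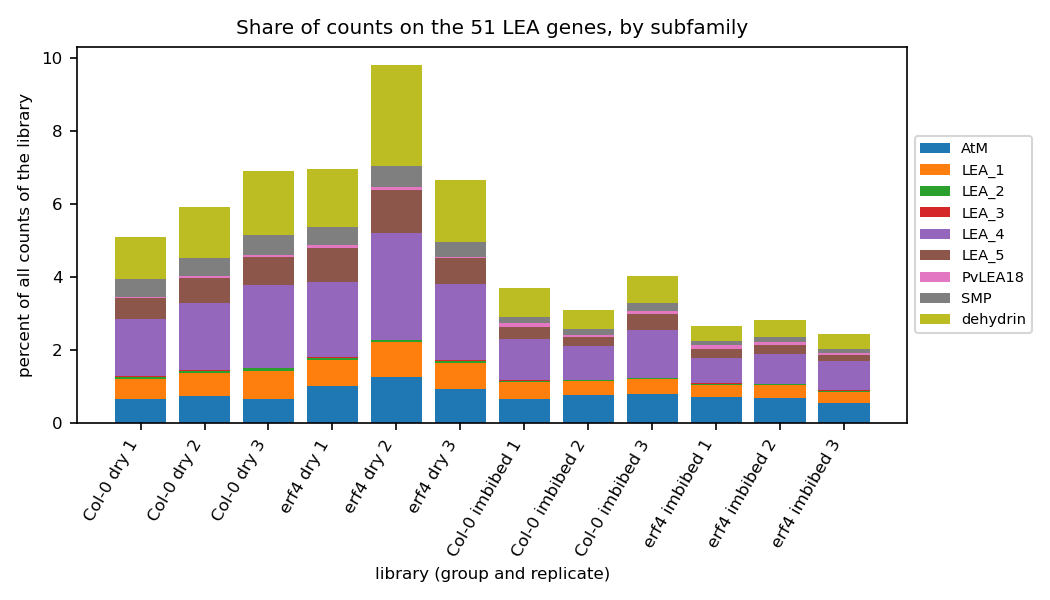
Percent of all counts of each library that fell on the 51 LEA genes, stacked by subfamily (vertical axis from 0, libraries by group and replicate on the horizontal axis). Dry libraries hold 5.11 to 9.82% and imbibed libraries 2.42 to 4.03%, with LEA_4 and dehydrins as the largest blocks.

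The LEA_4 genes took the largest part, 1.9% ± 0.36 of counts in dry Col-0, and the dehydrins 1.45% ± 0.308. AtM, LEA_5, LEA_1 and SMP followed at 0.674, 0.664, 0.655 and 0.515% (SD 0.0445, 0.0911, 0.117 and 0.0325), and the first 3 of these lay within their spread of each other. LEA_2, PvLEA18 and LEA_3 stood at 0.0651, 0.0542 and 0.0141% (SD 0.00464, 0.00722 and 0.00566). In imbibed Col-0 the PvLEA18 share was 0.0927% ± 0.0161 and the AtM share 0.736% ± 0.0706, while all other groups had lower means than in dry seeds, SMP with 0.179% ± 0.0243. For AtM the direction turned with the scaling, since its summed TMM-scaled level was lower in imbibed than in dry Col-0 (6504 against 8324 CPM). The TMM factors were 0.74 to 0.929 in dry and 1.07 to 1.295 in imbibed libraries. For every member, imbibed against dry therefore came out lower on the TMM scale than as a share of counts.

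Compared per length, the levels of single members spanned several orders of magnitude. In dry Col-0 RAB18, an ABA-responsive dehydrin gene, led with 12800 CPM per kb, ahead of EM6 with 9920 and the LEA_4 gene AT3G15670 with 8820 CPM per kb. LEA18 (5400), M17 (5200) and ATECP31 (4720 CPM per kb) came next. After imbibition M17 had the highest level in Col-0, 4470 CPM per kb, followed by RAB18 (3470), EM6 (2570), LEA18 (2400) and M10 (2360). At the other end, 4 genes (AT2G03740, AT2G03850, AT3G53770 and AT4G13230) had 0 counts in all 12 libraries, and 4 more (ERD10, COR15A, COR15B and AT2G33690) were below the filter on low counts, at 0 to 0.282 CPM. ERD10, an acidic dehydrin, and the COR15 genes, whose proteins protect chloroplast membranes from freezing, were thus close to or at 0 in these seeds. The 43 remaining members were tested with 18897 genes in all.

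**Figure D2:**
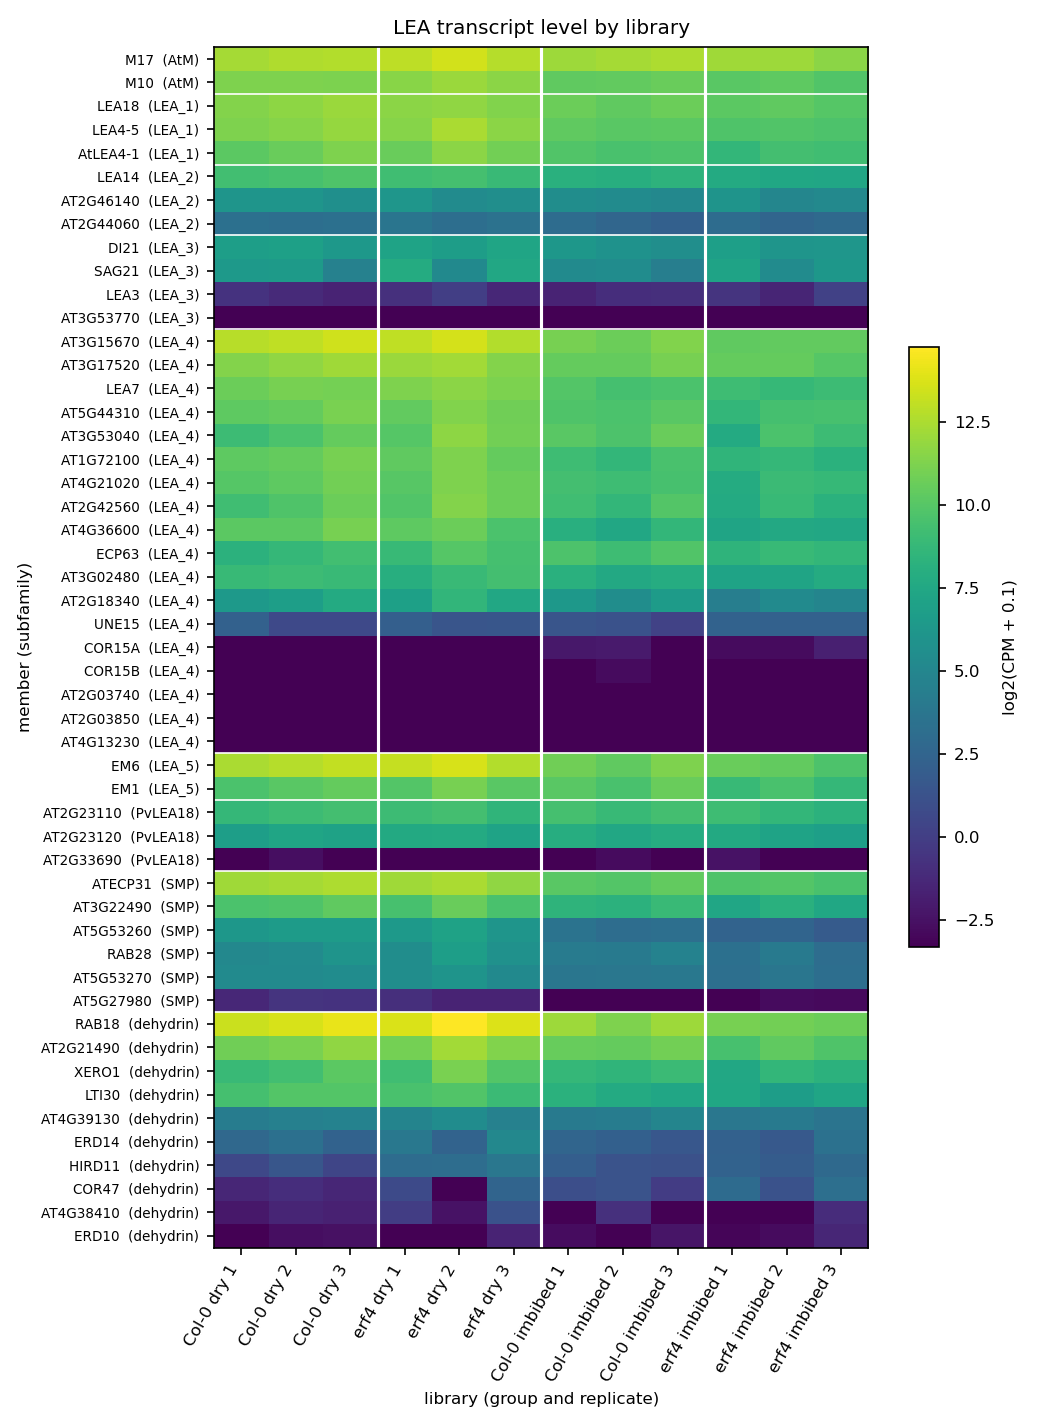
Level of each of the 51 members (rows, by subfamily) in each library (columns), as log2(CPM + 0.1) on the colour scale. The members range from 0 counts to 13900 CPM (RAB18) in the dry Col-0 mean, and most abundant members are brighter in the 6 dry libraries than in the 6 imbibed ones.

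The first comparison asked what imbibition for 6 h did in wild-type seeds. In Col-0, 24 of the 43 members tested fell and 2 rose, against 25.2% of all genes tested lower and 27.2% higher (52.5% called in all). The median log2 fold change of the members was -0.89, against 0.05 over all genes. Of the 8 seed markers, storage protein, oil body and other seed genes outside the family, 7 fell as well, with a median of -1.2 in Col-0 and -1.23 in the libraries labelled erf4, where 7 fell too. All 6 SMP genes and all 3 LEA_1 genes fell, as did 8 of 13 LEA_4 genes, 2 of 3 LEA_2 genes, 2 of 9 dehydrins and 1 each of the AtM, LEA_3 and LEA_5 genes. In PvLEA18 1 of 2 rose, and the other rise was that of the LEA_4 gene ECP63. Log2 fold changes below are imbibed against dry, with SE, unless another contrast is named. Gene positions are those of the deposited table, on TAIR10.

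The dehydrins and EM genes include the most abundant messages of the family. RAB18 (AT5G66400, chr5:26518277-26519447) stood at 10300, 13200 and 18300 CPM in dry Col-0, 13800, 27700 and 14200 in dry erf4 and 4430, 2440 and 4450 in imbibed Col-0, with 2170, 1920 and 1670 in imbibed erf4. Imbibed libraries were below all dry ones in both genotypes, and imbibed libraries labelled erf4 below all of imbibed Col-0. RAB18 fell in Col-0 (-1.88 ± 0.33, edgeR adjusted p = 0.000359) and in the libraries labelled erf4 (-3.27 ± 0.35, edgeR adjusted p = 5.76e-06). EM6 (AT2G40170, chr2:16779552-16780368), which is required for the normal timing of water loss in the maturing seed, stood at 5750, 7010 and 8670 CPM in dry Col-0, 9090, 13100 and 6390 in dry erf4 and 1830, 1310 and 2420 in imbibed Col-0, with 1590, 1370 and 852 in imbibed erf4. It fell in both genotypes (-1.95 ± 0.32, edgeR adjusted p = 0.000226, and -2.91 ± 0.33, edgeR adjusted p = 1.05e-05), with no overlap between dry and imbibed libraries. Its partner EM1 (AT3G51810, chr3:19214722-19215831) stood at 802, 1140 and 1450 CPM in dry Col-0, 949, 2110 and 1130 in dry erf4 and 1120, 746 and 1610 in imbibed Col-0, with 466, 759 and 430 in imbibed erf4. Dry and imbibed Col-0 libraries of EM1 overlapped (0.04 ± 0.35, edgeR adjusted p = 0.94, not called), whereas in the libraries labelled erf4 it fell (-1.34 ± 0.36, edgeR adjusted p = 0.00661) and all imbibed libraries were below all dry ones.

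Among the other dehydrins, LTI30, a membrane-binding protein named for its induction by low temperature, had the largest called fall in Col-0. LTI30 (AT3G50970, chr3:18940643-18941611) stood at 672, 964 and 975 CPM in dry Col-0, 747, 903 and 508 in dry erf4 and 293, 212 and 167 in imbibed Col-0, with 174, 109 and 157 in imbibed erf4. It fell in both genotypes (-1.96 ± 0.27, edgeR adjusted p = 4.82e-05, and -2.30 ± 0.27, edgeR adjusted p = 1.31e-05) without overlap of the seed states. AT2G21490 (chr2:9205990-9207125), second in abundance among the dehydrins, stood at 1860, 2240 and 3540 CPM in dry Col-0, 1980, 4770 and 2610 in dry erf4 and 1520, 1440 and 1890 in imbibed Col-0, with 710, 1310 and 879 in imbibed erf4. Replicate 3 was the highest in both Col-0 states and the seed states overlapped there (-0.66 ± 0.33, edgeR adjusted p = 0.114, not called), while it fell in the libraries labelled erf4 (-1.69 ± 0.34, edgeR adjusted p = 0.000959). XERO1, the tandem neighbour of LTI30, was called in the libraries labelled erf4 (-2.07 ± 0.47, edgeR adjusted p = 0.00304) but not in Col-0 (-0.79 ± 0.46, edgeR adjusted p = 0.17). AT4G39130, a scarcer dehydrin gene, fell in the libraries labelled erf4 (-1.14 ± 0.24, edgeR adjusted p = 0.00144) and was not called in Col-0. The dehydrins known from cold leaves were scarce: COR47 had 0.326 ± 0.0683 CPM and ERD14 7.28 ± 2.48 CPM in dry Col-0.

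In LEA_4, whose proteins can fold into amphipathic helices on drying, AT3G15670 (chr3:5309886-5310988) stood at 7120, 8490 and 11400 CPM in dry Col-0, 8250, 12500 and 6630 in dry erf4 and 2090, 1650 and 2590 in imbibed Col-0, with 1320, 1390 and 1360 in imbibed erf4. Dry and imbibed libraries were far apart in both genotypes, and it fell in both (-2.09 ± 0.27, edgeR adjusted p = 2.9e-05, and -2.76 ± 0.28, edgeR adjusted p = 3.5e-06). AT3G17520 (chr3:5999174-6000447) stood at 2700, 3510 and 4710 CPM in dry Col-0, 4120, 4900 and 2740 in dry erf4 and 1410, 1460 and 2120 in imbibed Col-0, with 1460, 1400 and 993 in imbibed erf4. It also fell in both (-1.13 ± 0.27, edgeR adjusted p = 0.00345, and -1.61 ± 0.28, edgeR adjusted p = 0.000264), again without overlap. AT4G36600 had the largest called fall of the group in Col-0, from 1180, 1200 and 2090 CPM in dry to 276, 184 and 400 in imbibed libraries (-2.38 ± 0.33, edgeR adjusted p = 7.29e-05). Its libraries labelled erf4 went the same way, from 1220, 1680 and 788 to 148, 188 and 180 CPM (-2.84 ± 0.34, edgeR adjusted p = 1.84e-05), and the seed states overlapped in neither genotype. LEA7 (-1.27 ± 0.19, edgeR adjusted p = 8.69e-05, and -2.36 ± 0.19, edgeR adjusted p = 7.6e-07) and AT1G72100 (-1.47 ± 0.29, edgeR adjusted p = 0.000888, and -2.26 ± 0.30, edgeR adjusted p = 3.35e-05) fell in Col-0 and in the libraries labelled erf4. AT3G02480 (-1.06 ± 0.28, and -1.44 ± 0.29), AT4G21020 (-1.09 ± 0.35, and -2.14 ± 0.36) and AT5G44310 (-0.82 ± 0.30, and -1.67 ± 0.30) fell in both as well, as log2 fold changes. The Col-0 calls of AT4G21020 and AT5G44310 were lost without Col-0 dry replicate 3 or Col-0 imbibed replicate 1 or 2 (edgeR adjusted p up to 0.0937 and 0.17). AT2G18340 (-2.90 ± 0.48, edgeR adjusted p = 0.000379), AT2G42560 (-2.45 ± 0.50, edgeR adjusted p = 0.0015) and AT3G53040 (-1.98 ± 0.55, edgeR adjusted p = 0.00926) fell in the libraries labelled erf4 and were not called in Col-0.

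ECP63, named after a carrot protein of embryogenic cells, was the exception in LEA_4. ECP63 (AT2G36640) stood at 312, 421 and 618 CPM in dry Col-0, 467, 1030 and 672 in dry erf4 and 821, 556 and 931 in imbibed Col-0, with 340, 469 and 405 in imbibed erf4. In Col-0 the imbibed libraries were mostly higher, with replicate 2 inside the dry range, and in the libraries labelled erf4 mostly lower, with replicate 2 at the lower edge of the dry range. It was called higher in Col-0 (0.77 ± 0.30, edgeR adjusted p = 0.046) and lower in the libraries labelled erf4 (-0.84 ± 0.30, edgeR adjusted p = 0.0314). The call in Col-0 was lost under 9 alternatives, among them RLE size factors and leaving out Col-0 dry replicate 1 or 2, Col-0 imbibed replicate 1 or 3 or erf4 dry replicate 3 (highest edgeR adjusted p = 0.422). The call in the libraries labelled erf4 was lost under 5, all of them without erf4 dry replicate 2, erf4 imbibed replicate 1 or 3, or both erf4 libraries of number 2 or 3 (highest edgeR adjusted p = 0.165).

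The LEA_1 genes fell as a block. LEA18 (AT2G35300, chr2:14862779-14863412) stood at 2750, 3260 and 4270 CPM in dry Col-0, 3210, 3440 and 2530 in dry erf4 and 1640, 1300 and 1640 in imbibed Col-0, with 1200, 1310 and 1020 in imbibed erf4. LEA4-5 (AT5G06760, chr5:2089445-2090430), a gene linked to tolerance of water deficit, stood at 2430, 2870 and 3780 CPM in dry Col-0, 2860, 5660 and 3120 in dry erf4 and 1290, 1120 and 1170 in imbibed Col-0, with 883, 925 and 821 in imbibed erf4. For both, all imbibed libraries were below all dry ones of the same genotype, and the called falls were -1.17 ± 0.20, edgeR adjusted p = 0.000348, and -1.38 ± 0.21, edgeR adjusted p = 8.79e-05, for LEA18, and -1.34 ± 0.25, edgeR adjusted p = 0.000565, and -2.15 ± 0.26, edgeR adjusted p = 1.4e-05, for LEA4-5. The third gene, AtLEA4-1, fell by a log2 fold change of -1.05 ± 0.30 in Col-0 and -2.01 ± 0.31 in the libraries labelled erf4, the former with an edgeR adjusted p of 0.0622 without Col-0 dry replicate 3.

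The SMP genes had some of the largest falls. ATECP31 (AT3G22500, chr3:7971625-7972907) stood at 4690, 5050 and 5950 CPM in dry Col-0, 4750, 5640 and 3500 in dry erf4 and 1100, 982 and 1370 in imbibed Col-0, with 872, 992 and 756 in imbibed erf4. It fell in both genotypes (-2.18 ± 0.22, edgeR adjusted p = 4.07e-06, and -2.41 ± 0.22, edgeR adjusted p = 1.82e-06), with no imbibed library near a dry one. Its tandem neighbour AT3G22490 (chr3:7969681-7970843), which shares 83.6% of an 842-base stretch with it, stood at 790, 870 and 1290 CPM in dry Col-0, 725, 1600 and 746 in dry erf4 and 343, 317 and 499 in imbibed Col-0, with 165, 285 and 178 in imbibed erf4. It fell as well (-1.35 ± 0.33, edgeR adjusted p = 0.00427, and -2.29 ± 0.34, edgeR adjusted p = 0.000108), and it overlaps a gene on the other strand by 25 bases. AT5G53260, at 90.9 ± 12.4 CPM in dry Col-0, fell there without overlap of the seed states (-3.16 ± 0.26, edgeR adjusted p = 1.17e-06), and from 97.1 ± 36.9 to 4.86 ± 1.06 CPM in the libraries labelled erf4 (-4.32 ± 0.27, edgeR adjusted p = 2.06e-07). Its neighbour AT5G53270 fell as well (-1.56 ± 0.19, edgeR adjusted p = 2.22e-05, and -2.24 ± 0.20, edgeR adjusted p = 1.35e-06). RAB28, related to an ABA-responsive gene of maize, fell in both genotypes too (-1.24 ± 0.37, edgeR adjusted p = 0.0142, and -2.57 ± 0.38, edgeR adjusted p = 0.000165), with the Col-0 call lost without Col-0 dry replicate 3 or Col-0 imbibed replicate 1 or 2 (up to 0.0595).

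AT5G27980, the scarcest SMP gene tested, had the largest called fall in Col-0. AT5G27980 (chr5:10015774-10016879) stood at 0.311, 0.548 and 0.512 CPM in dry Col-0, 0.434, 0.242 and 0.244 in dry erf4 and 0, 0 and 0 in imbibed Col-0, with 0, 0.0443 and 0.0402 in imbibed erf4. All imbibed Col-0 libraries held 0 counts, so it was at least 18.7-fold lower there, against 3 counts over the group (edgeR adjusted p = 0.00116). In the libraries labelled erf4 it also fell (-3.32 ± 0.99, edgeR adjusted p = 0.0141, or 0.0513 without erf4 dry replicate 1). It overlaps AT5G27990 on the other strand by 218 bases, a gene with 1503 to 3171 counts, and with the strand setting not given its few reads are uncertain. At its bound it would still be the lowest member on imbibition in Col-0, so the medians of that contrast do not depend on its fitted value.

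The LEA_2 genes encode proteins with a folded domain, unlike the rest of the family. LEA14 (AT1G01470, chr1:171525-172948) stood at 611, 733 and 862 CPM in dry Col-0, 605, 704 and 479 in dry erf4 and 285, 258 and 323 in imbibed Col-0, with 208, 177 and 166 in imbibed erf4. Dry and imbibed libraries of both genotypes were apart, and it fell in both (-1.35 ± 0.18, edgeR adjusted p = 3.7e-05, and -1.70 ± 0.18, edgeR adjusted p = 5.52e-06). AT2G46140 (chr2:18958999-18960645) stood at 68.3, 67.8 and 51.6 CPM in dry Col-0, 71.5, 42.9 and 49.6 in dry erf4 and 45.4, 43.0 and 34.9 in imbibed Col-0, with 64.9, 31.5 and 36.6 in imbibed erf4. The seed states overlapped in the libraries labelled erf4 and were apart in Col-0, and neither contrast was called. The third gene, AT2G44060, fell in both by small amounts (-0.63 ± 0.22, edgeR adjusted p = 0.0276, and -0.61 ± 0.22, edgeR adjusted p = 0.0301). Leaving out any 1 of replicates 1 and 3 in dry or of replicates 2 and 3 in imbibed seeds of the genotype ended these calls (adjusted p up to 0.136 over all alternatives in Col-0 and 0.114 in the libraries labelled erf4).

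In LEA_3, whose best known member SAG21 is induced in senescence and by oxidative stress, levels were low. DI21 (AT4G15910, chr4:9028262-9029477), a drought-induced gene, stood at 110, 124 and 78.7 CPM in dry Col-0, 141, 105 and 161 in dry erf4 and 75.0, 59.5 and 49.9 in imbibed Col-0, with 119, 69.8 and 74.0 in imbibed erf4. It fell in Col-0 without overlap (-0.76 ± 0.24, edgeR adjusted p = 0.0173) and in the libraries labelled erf4 with overlap (-0.63 ± 0.24, edgeR adjusted p = 0.0393). Those calls were lost without Col-0 dry replicate 2 or Col-0 imbibed replicate 2 or 3 (up to 0.162 over all alternatives) and without erf4 dry replicate 1 or 3, Col-0 imbibed replicate 2 or erf4 imbibed replicate 2 or 3 (up to 0.287). SAG21 (AT4G02380, chr4:1046042-1047105) stood at 83.5, 92.7 and 24.4 CPM in dry Col-0, 224, 38.4 and 182 in dry erf4 and 40.5, 44.9 and 21.3 in imbibed Col-0, with 140, 42.2 and 75.5 in imbibed erf4. Replicates differed widely, the groups overlapped, and it was called in no contrast. LEA3 had at most 1.01 CPM in any library and was not called either.

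The AtM and PvLEA18 genes did not move as one. M17 (AT2G41260, chr2:17206452-17207698) stood at 5070, 6320 and 6380 CPM in dry Col-0, 7800, 11800 and 6910 in dry erf4 and 4330, 5080 and 5840 in imbibed Col-0, with 4540, 4510 and 3210 in imbibed erf4. Its seed states overlapped in Col-0 and were apart in the libraries labelled erf4, where it fell (-1.11 ± 0.24, edgeR adjusted p = 0.00145). M10 (AT2G41280, chr2:17209697-17210423), its tandem neighbour, stood at 2470, 2430 and 2310 CPM in dry Col-0, 3050, 4220 and 3130 in dry erf4 and 1320, 1360 and 1580 in imbibed Col-0, with 1110, 1260 and 944 in imbibed erf4. It fell in both (-0.76 ± 0.18, edgeR adjusted p = 0.00294, and -1.65 ± 0.18, edgeR adjusted p = 7.58e-06) without overlap. AT2G23110 (chr2:9840456-9841366) stood at 414, 546 and 655 CPM in dry Col-0, 542, 667 and 370 in dry erf4 and 675, 455 and 667 in imbibed Col-0, with 568, 400 and 320 in imbibed erf4, with overlapping seed states and no call in either genotype. Its neighbour AT2G23120 (chr2:9841842-9842634) stood at 115, 156 and 137 CPM in dry Col-0, 198, 213 and 140 in dry erf4 and 244, 185 and 231 in imbibed Col-0, with 199, 140 and 120 in imbibed erf4. All imbibed Col-0 libraries were above all dry ones and it rose (0.69 ± 0.21, edgeR adjusted p = 0.0122, or 0.0563 without Col-0 dry replicate 1), while in the libraries labelled erf4 the states overlapped (log2 fold change -0.27 ± 0.21, not called).

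In the libraries labelled erf4, 35 of the 43 members fell on imbibition and 0 rose, against 27.2% of all genes lower and 28.4% higher (55.5% called). The median log2 fold change of the members was -1.70, against 0.04 over all genes. Of the 43, 24 fell in both genotypes (21.2% of all genes did), 10 were called lower in the libraries labelled erf4 and not called in Col-0, ECP63 was called in opposite directions, AT2G23120 rose in Col-0 alone and 7 were called in neither. The 10 were EM1, M17, HIRD11, ERD14, XERO1, AT2G21490, AT4G39130, AT2G18340, AT2G42560 and AT3G53040. The call of ERD14 (-1.53 ± 0.60, edgeR adjusted p = 0.0474) was lost under 14 alternatives. With the replicate number as a block within each genotype, chosen after seeing the data, all 35 were still called and AT2G46140, AT4G38410 (lower) and COR47 (higher) were called too, against 62.8% of all genes. In Col-0 that fit called 33 members, 30 lower and 3 higher, against 60.1% of all genes, with XERO1, ERD14, AT2G21490, AT2G18340 and AT2G42560 among the 7 added. Being called in one genotype and not in the other is no test of a difference, which is the interaction below. In LEA_4 12 of 13 genes fell, UNE15 being the one that was not called, and in dehydrins 7 of 9. Among the dry libraries the suffix letter of the library name, whose meaning the labels do not give, was b in Col-0 replicates 1 and 2 and in erf4 replicate 1 and r elsewhere, and r in all imbibed ones. Within letter r, where dry Col-0 is 1 library, 25 members called in Col-0 and all 35 called in the libraries labelled erf4 kept their direction. The other member called in Col-0, AT5G27980, gave no fold there because it had 0 counts in imbibed Col-0.

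**Figure D3:**
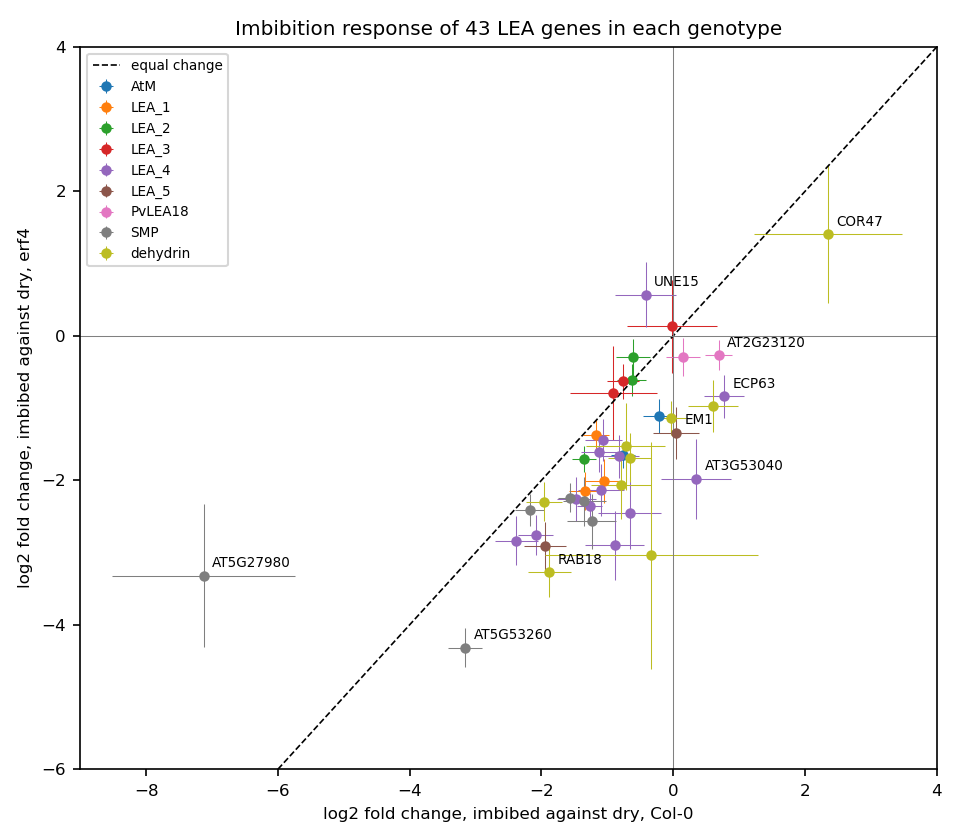
Log2 fold change of 43 members on imbibition in Col-0 (horizontal) and in the libraries labelled erf4 (vertical), with SE bars and colours for the subfamilies; the dashed line marks equal change. Most points lie below the line, as for RAB18 (-1.88 and -3.27), EM1 (0.04 and -1.34) and ECP63 (0.77 and -0.84).

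In dry seeds, 1 of the 43 members was called between the genotypes, against 1.1% of all genes tested. This was HIRD11, a small histidine-rich dehydrin that binds metal ions, and it was higher in the libraries labelled erf4. HIRD11 (AT1G54410, chr1:20309473-20310850) stood at 1.43, 2.83 and 1.28 CPM in dry Col-0, 8.19, 8.72 and 14.2 in dry erf4 and 4.04, 2.34 and 2.12 in imbibed Col-0, with 5.02, 3.66 and 7.16 in imbibed erf4. All 3 dry libraries labelled erf4 were above all 3 of dry Col-0, while the imbibed groups overlapped. In both states HIRD11 was highest in replicate 3 labelled erf4, where ERF4 stood at 109 and 83.3% of the Col-0 mean. A link between the levels of HIRD11 and ERF4 was not tested. Without both erf4 libraries of number 3, HIRD11 was still called in dry seeds. The log2 fold change was 2.48 ± 0.39, edgeR adjusted p = 0.00991 in dry seeds and 0.90 ± 0.37, edgeR adjusted p = 0.28, not called, in imbibed seeds. On imbibition HIRD11 fell in the libraries labelled erf4 (-0.97 ± 0.36, edgeR adjusted p = 0.0339, up to 0.159 over the alternatives, with the call lost without erf4 dry replicate 3 or erf4 imbibed replicate 1 or 2) and was not called in Col-0 (0.61 ± 0.38, edgeR adjusted p = 0.197). The dry call was lost without Col-0 dry replicate 1 or replicate 3, and the highest adjusted p over the alternatives was 0.0701. Within letter b and within letter r the dry difference had the same sign.

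In dry seeds 6 more members passed an unadjusted p of 0.05, which makes 7 in all, all higher in the libraries labelled erf4, where 8.09% of all genes were higher at this level. These were COR47 (2.90 ± 1.12, edgeR adjusted p = 0.238), ERD14 (1.32 ± 0.60, edgeR adjusted p = 0.315), ECP63 (0.68 ± 0.30, edgeR adjusted p = 0.297), M17 (0.57 ± 0.24, edgeR adjusted p = 0.257), M10 (0.53 ± 0.18, edgeR adjusted p = 0.164) and LEA7 (0.42 ± 0.18, edgeR adjusted p = 0.291), none of them called. The median over the 43 was 0.36, against 0.01 over all genes, and it was 0.03 without erf4 dry replicate 2, the library with the highest LEA share. None of the 8 seed markers was called in this contrast, and their median was -0.41. The count of 7 was 3 without Col-0 dry replicate 1, and 4 without erf4 dry replicate 2. With the suffix letter as a covariate it was 3, and the median over the 43 was 0.22. In dry erf4 replicates 1 to 3 COR47 stood at 1.61, 0 and 5.70 CPM and ERD14 at 15.3, 5.33 and 34.0 CPM, the order in which the summed leaf genes stood at 105, 61.6 and 183 CPM. SAG21, with 224, 38.4 and 182 CPM, was also lowest in replicate 2. HIRD11, with 8.19, 8.72 and 14.2 CPM, was highest in replicate 3. The part of leaf, pollen or endosperm transcripts, or of the lower seed marker sums, in these values was not tested.

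**Figure D4:**
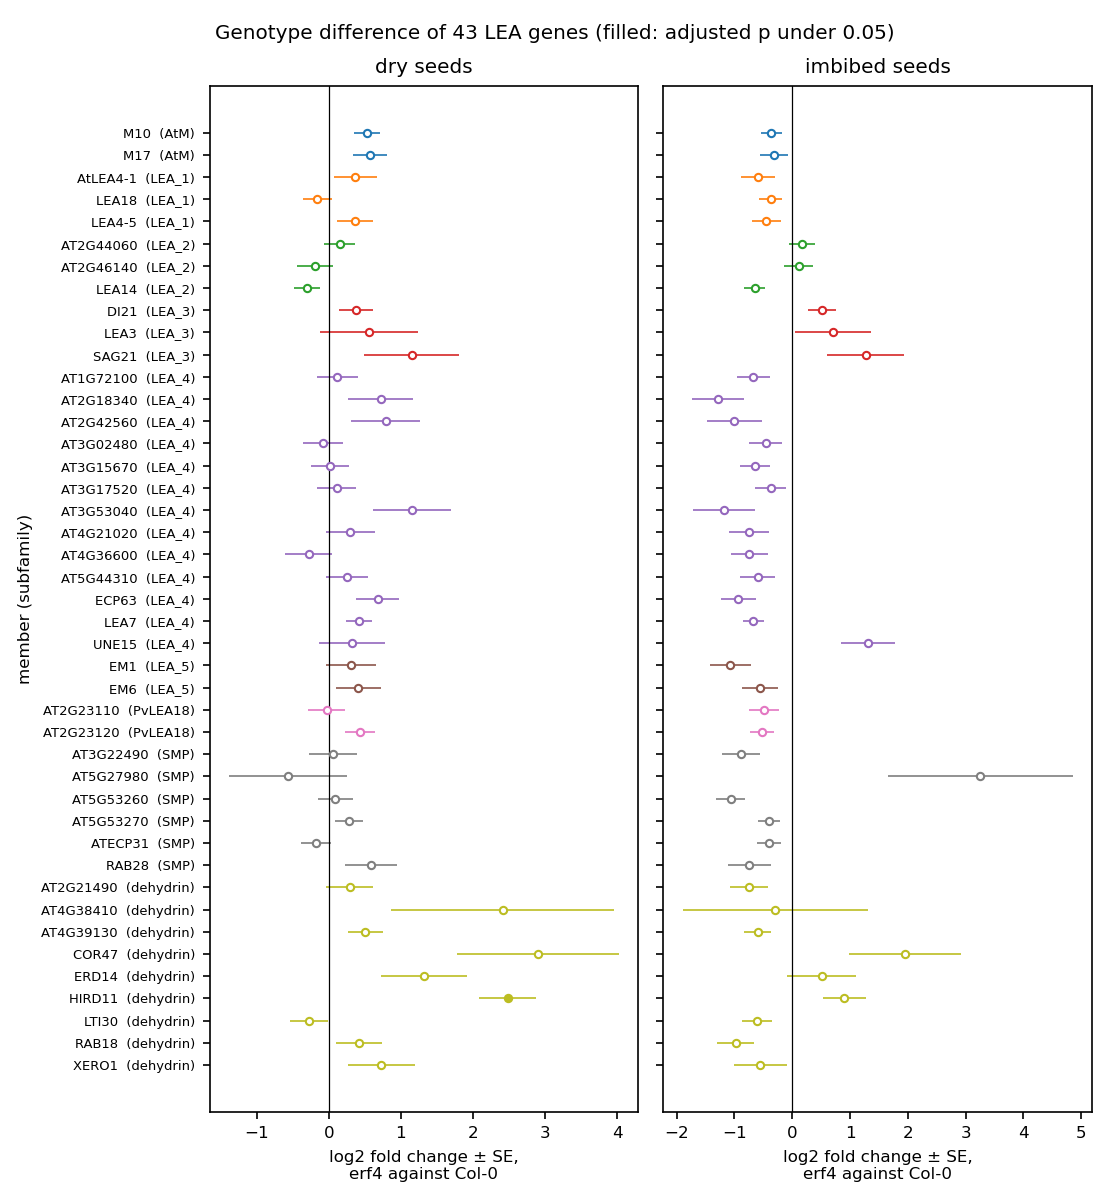
Log2 fold change between genotypes (erf4 as labelled over Col-0) of 43 members in dry seeds (left) and imbibed seeds (right), with SE bars; filled points have an adjusted p under 0.05. HIRD11 in dry seeds is the single filled point, and the members' medians are 0.36 in dry and -0.55 in imbibed seeds.

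In imbibed seeds, edgeR called 0 of the 43 members between the genotypes, against 0.0212% of all genes. DESeq2 called 4 (AT5G53260, LEA14, LEA7 and RAB18, all lower in the libraries labelled erf4), against 1.54% of all 32833 genes. The lowest edgeR adjusted p of a member was 0.124, that of AT5G53260. At an unadjusted p under 0.05, 17 members were lower in the libraries labelled erf4 and 2 were higher, against 7.83 and 7.13% of all genes. In 16 members all libraries labelled erf4 were below all of Col-0, against 12.7% of all genes. The median was -0.55, against 0.01 over all genes. The count of 17 depended on single libraries: it was 6 without Col-0 imbibed replicate 3, 9 without erf4 imbibed replicate 1, 10 without Col-0 imbibed replicate 1 or erf4 imbibed replicate 3, and 24 without erf4 dry replicate 2.

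The 17 members came from 6 of the 9 subfamilies, 8 of them from LEA_4. AT2G18340 stood at 75.0 ± 26.4 and 30.6 ± 9.3 CPM in imbibed Col-0 and erf4 (-1.29 ± 0.45, edgeR adjusted p = 0.231). AT3G53040, at 1180 ± 377 and 522 ± 301 CPM, differed by -1.18 ± 0.54, edgeR adjusted p = 0.332. ECP63, given above by library, differed by -0.93 ± 0.30, edgeR adjusted p = 0.207, without overlap. The smaller differences in LEA_4 were those of AT4G21020 (-0.75 ± 0.35), AT4G36600 (-0.74 ± 0.32), AT1G72100 (-0.67 ± 0.29), LEA7 (-0.67 ± 0.18) and AT3G15670 (-0.64 ± 0.26), all log2 fold changes without a call. In SMP, AT5G53260 differed by -1.06 ± 0.25, edgeR adjusted p = 0.124 and AT3G22490 by -0.88 ± 0.33, edgeR adjusted p = 0.244. Of the dehydrins, RAB18 differed by -0.98 ± 0.32, edgeR adjusted p = 0.208, AT2G21490 by -0.74 ± 0.33, LTI30 by -0.61 ± 0.26 and AT4G39130 by -0.60 ± 0.24. EM1 (-1.07 ± 0.36, edgeR adjusted p = 0.214), LEA14 (-0.65 ± 0.18, edgeR adjusted p = 0.157) and AT2G23120 (-0.52 ± 0.21, edgeR adjusted p = 0.264) completed the list. The 2 higher members were HIRD11 and UNE15, a gene named from a screen for unfertilised embryo sacs, which stood at 1.95 ± 0.785 and 4.82 ± 0.116 CPM (1.31 ± 0.46, edgeR adjusted p = 0.223).

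By sign of the estimate alone, 26 of the 43 members were higher in dry and lower in imbibed libraries labelled erf4 than in Col-0, against 21.3% of all genes. The dry signs depended on erf4 dry replicate 2. Without it, 19 of the 43 were below 0 in dry seeds, where the main fit had 9. A further 8 were higher in both states (HIRD11, COR47, ERD14, UNE15, AT2G44060 and all 3 LEA_3 genes tested), 7 were lower in both (LEA14, LEA18, LTI30, ATECP31, AT3G02480, AT4G36600 and AT2G23110) and 2 were lower in dry and higher in imbibed seeds. Those 2 were AT2G46140 and AT5G27980, and the latter had at most 2 counts in an imbibed library.

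Whether imbibition changed the genotypes differently is what the interaction tests, the imbibition response of the libraries labelled erf4 minus that of Col-0. By edgeR, 0 of the 43 members and 0.0% of all genes tested were called. DESeq2 called 3 members (ECP63, LEA7 and M10, all below 0), against 0.573% of all genes. At an unadjusted p under 0.05, 19 members were below 0 and none above, against 6.18% of all genes below 0 and 4.3% above. The estimate was below 0 in 36 of the 43, against 51.2% of all genes, and the median was -0.89, against -0.01. The lowest edgeR adjusted p of a member was 0.235, that of LEA7. The 19 became 10 without erf4 dry replicate 2, and 14 without Col-0 dry replicate 1 or 2 or Col-0 imbibed replicate 3, and 25 without Col-0 dry replicate 3.

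Among these 19, the largest interaction estimates were in LEA_4, with AT3G53040 at -2.33 ± 0.76, edgeR adjusted p = 0.321, AT2G18340 at -2.01 ± 0.64, edgeR adjusted p = 0.32, AT2G42560 at -1.79 ± 0.68, edgeR adjusted p = 0.393 and ECP63 at -1.61 ± 0.43, edgeR adjusted p = 0.264. LEA7 had a smaller and more precise one (-1.09 ± 0.26, edgeR adjusted p = 0.235). Among the dehydrins HIRD11 (-1.58 ± 0.52), RAB18 (-1.39 ± 0.46), AT4G39130 (-1.10 ± 0.34) and AT2G21490 (-1.04 ± 0.47) were below 0 at this level, as were both EM genes (EM1 -1.38 ± 0.50, EM6 -0.96 ± 0.44) and both AtM genes (M17 -0.89 ± 0.33, M10 -0.89 ± 0.25). The SMP genes RAB28 (-1.33 ± 0.52), AT5G53260 (-1.16 ± 0.34) and AT5G53270 (-0.68 ± 0.27), the LEA_1 genes AtLEA4-1 (-0.96 ± 0.42) and LEA4-5 (-0.81 ± 0.35) and the PvLEA18 gene AT2G23120 (-0.96 ± 0.29) made up the rest. In a fit with the replicate number as a block within each genotype, chosen after seeing the data, 17 members were called, all below 0, against 3.14% of all genes. Same-numbered dry and imbibed libraries labelled erf4 deviated together, and those of Col-0 had a correlation above 0.1 in 2 of 3 numbers. In Col-0 same-numbered pairs correlated at 0.066 or more and different-numbered ones at 0.053 or less. The latter are no separate check, since deviations from a group mean sum to 0 and positive same-numbered values lower the others. Libraries of the 2 genotypes with different numbers reached 0.354, and whether the Col-0 libraries were paired is not known. The main fit, which called 0 members, held no replicate block.

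**Figure D5:**
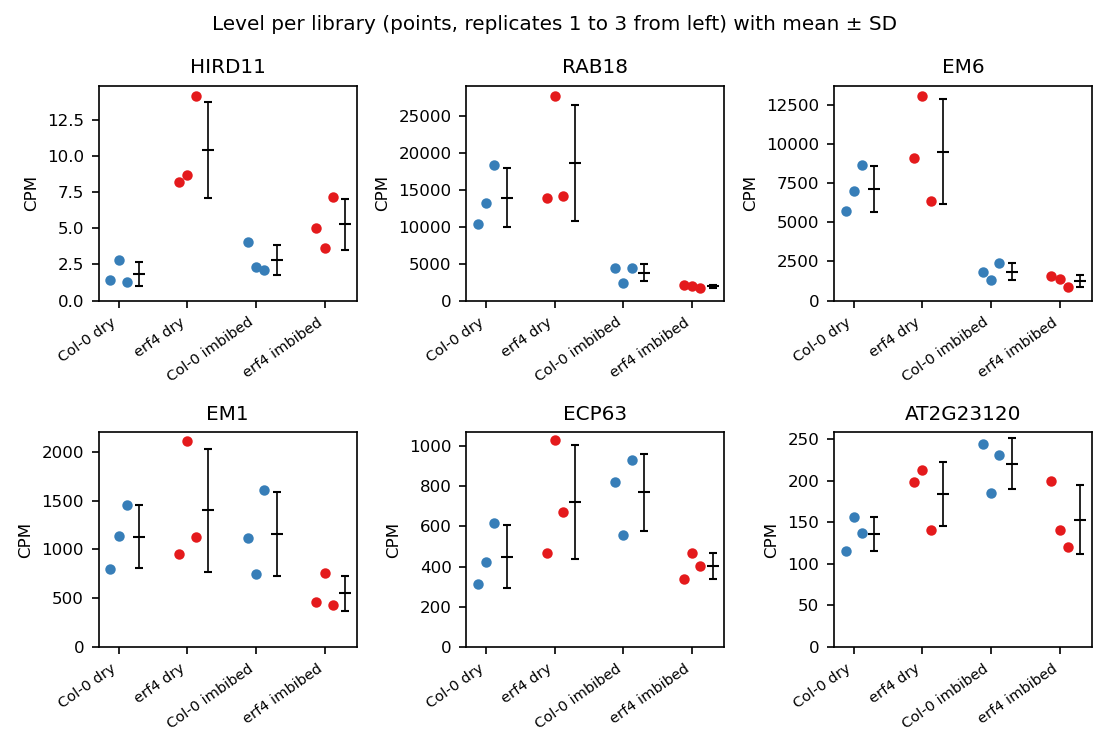
CPM of HIRD11, RAB18, EM6, EM1, ECP63 and AT2G23120 in each library (points, blue for Col-0 and red for erf4, vertical axes from 0), with mean ± SD of the 3 libraries of a group beside them. HIRD11 is apart between the genotypes in dry seeds, RAB18 and EM6 are lower in all imbibed libraries, and ECP63 has higher imbibed than dry means in Col-0 (769 and 450 CPM) but not in the libraries labelled erf4 (405 and 722 CPM).

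Members with an ABRE core in the window had a median log2 fold change of -1.05 on imbibition in Col-0, against -0.52 for those without, and of -2.01 against -0.70 in the libraries labelled erf4. Between the genotypes in imbibed seeds the medians were -0.60 with and 0.44 without a core, and for the interaction -0.96 and -0.10. Of the 43 members tested, 33 had a core, so the medians without one rest on few genes. Among these are LEA3, at 0.373 CPM in imbibed Col-0, and AT5G27980, with at most 2 counts in an imbibed library. The latter entered the imbibed genotype median at its fitted 3.25, while its bound was 1.15-fold. With AT5G27980 at its bound the median of 0.44 would be lower, so it depends on scarce genes. The RY repeat, held by 8 of the 43, went the other way on imbibition, with medians of -0.35 with and -0.91 without it in Col-0 and -1.54 and -2.07 in the libraries labelled erf4. These medians are given as a description without a test.

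A list of 24 regulators that are known to act on LEA genes or on their factors was read in the same fits, of which 20 were tested. In Col-0, 5 rose on imbibition and 13 fell, against 27.2% of all genes higher and 25.2% lower. In the libraries labelled erf4, 4 rose and 13 fell, against 28.4 and 27.2%. HSFA9, the heat shock factor of seeds, had the largest fall (-2.48 ± 0.34, edgeR adjusted p = 8.28e-05, and -2.97 ± 0.35, edgeR adjusted p = 2.2e-05), and ABI5 fell too (-1.19 ± 0.24, edgeR adjusted p = 0.00101, and -1.92 ± 0.24, edgeR adjusted p = 2.4e-05). ABI3 (1.14 ± 0.21, edgeR adjusted p = 0.000474, and 0.87 ± 0.21, edgeR adjusted p = 0.00282) and ABI4 (2.43 ± 0.30, edgeR adjusted p = 2.85e-05, and 1.62 ± 0.29, edgeR adjusted p = 0.000485) rose in both. Between the genotypes edgeR called 0 of the 20, with 4 at an unadjusted p under 0.05 in either state. At that level 8.09% of all genes were higher and 7.51% lower in dry seeds, and 7.13 and 7.83% in imbibed seeds, so 4 of 20 is close to the background and the values that follow are a description. In imbibed seeds these were ABI5, at 302 ± 35.4 CPM in Col-0 and 206 ± 40.9 in erf4 (-0.55 ± 0.24, edgeR adjusted p = 0.302), HSFA9 (-0.71 ± 0.33, edgeR adjusted p = 0.333), DOG1, the main dormancy gene (-0.76 ± 0.20, edgeR adjusted p = 0.15), and EEL, a bZIP factor that competes with ABI5 at the EM1 promoter (0.41 ± 0.17, edgeR adjusted p = 0.3). In dry seeds they were DOG1 (-0.80 ± 0.20, edgeR adjusted p = 0.0742), FUS3 (-0.56 ± 0.22, edgeR adjusted p = 0.233), ABF1 (0.37 ± 0.14, edgeR adjusted p = 0.224) and CBF2, which had under 1 CPM in all group means (3.64 ± 1.29, edgeR adjusted p = 0.187). ABI5, at 688 ± 164 and 781 ± 258 CPM in dry Col-0 and erf4, had an interaction estimate of -0.73 ± 0.33, edgeR adjusted p = 0.472, not called. Over the 20 regulators tested the median interaction estimate was -0.27. At an unadjusted p under 0.05 there were 2 of the 20, against 6.18% of all genes below 0 and 4.3% above.

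Several members are neighbours in the genome. The pairs COR47 and ERD10, AT2G23110 and AT2G23120, M17 and M10, AT3G22490 and ATECP31, LTI30 and XERO1, and AT5G53260 and AT5G53270 lie within 1998 bases of each other, as gaps between annotated genes. COR15B, COR15A and AT2G42560 lie in a row on chromosome 2, where AT2G42560 had 1030 ± 552 CPM in dry Col-0 and both COR15 genes had 0. LTI30 and XERO1, 313 bases apart on chromosome 3, had 871 ± 172 and 753 ± 364 CPM in dry Col-0. ATECP31 and AT3G22490, 781 bases apart, had 5230 ± 648 and 983 ± 268 CPM there. No member had a copy with at least 95% identity over 100 bases. RAB18 overlaps a gene on the other strand by 11 bases, which held 396 to 1018 counts where RAB18 held 82919 to 685885.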

How the data were processed

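RNA-seq of 12 seed libraries was analysed from the deposited table of raw counts, in featureCounts layout per the file headers. The authors used HISAT2 2.1.0 and featureCounts 2.0.1, next to fastp 0.20.0 and DESeq2 1.34.0, with build TAIR10, as listed per the submitters' processing notes. Strand setting and annotation release are not given in the sources used here. A further promoter window is not reported here. All 51 members had the same start and end in the reference annotation of TAIR10.1.

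Counts entered edgeR 4.0.16 (R 4.3.3; filterByExpr, TMM factors of 0.74 to 1.295, robust quasi-likelihood fit of 4 group means, 8 residual degrees of freedom). Calls needed an adjusted p (Benjamini-Hochberg, over the 18897 genes tested) under 0.05. Folds are log2 with SE, and levels are TMM-scaled CPM with SD, n = 3. Floors cover counting error only, while SD and SE hold the spread between libraries. The code was tested on simulated data.

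The members, subfamilies and lists were chosen with earlier results of these data known. Values in every library are given for members called between the genotypes and, per subfamily, for the 2 most abundant and the largest called rise and fall in Col-0. Folds are given where called or, between genotypes, at an unadjusted p under 0.05, and for some further members as contrasts to these. Alternatives were DESeq2 1.42.0, RLE factors, other filters and thresholds, a replicate block, the suffix letter as a covariate, only the groups compared, and fewer libraries. Same-numbered dry and imbibed libraries labelled erf4 correlated in their deviations from the group means at 0.341 to 0.35, and those of Col-0 at 0.066 to 0.215. Libraries of the 2 genotypes with the same number correlated at -0.277 to 0.077. Different-numbered dry and imbibed libraries of Col-0 correlated at -0.15 to 0.053. These values are no separate check of the pairing, since deviations from a group mean sum to 0. Same-numbered dry and imbibed libraries thus deviated together in those labelled erf4. In Col-0, where 1 pair was under 0.1, the values do not settle whether they did. The main fit treated dry and imbibed libraries as unpaired. Libraries of the 2 genotypes with different numbers correlated at up to 0.354 (Col-0 replicate 3 with erf4 replicate 2, dry; 0.344 imbibed).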

Additional observations from a re-analysis of the deposited data

How the results depend on the processing

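The counts of members called in the 2 imbibition contrasts, the summed CPM of each group and the ERF4 differences stayed within 1.5 times or on the same side of the threshold in all alternatives run, and no result reversed. In dry seeds, DESeq2 called 2 members between the genotypes (HIRD11 and M10), against 2.77% of all genes. Without both erf4 libraries of number 2 there were also 2 (HIRD11 and COR47), against 1.9%. Leaving out 1 library gave 0 to 2, against 0.212 to 1.46%. In imbibed seeds, DESeq2 called 4, against 1.54% of all genes. Without both erf4 libraries of number 2 there were 4 (AT3G22490, AT5G53260 and EM1 lower, COR47 higher). That fit called 1.99% of all genes, against 0.0212% in the main fit. For the interaction, DESeq2 called 3, against 0.573% of all genes. The replicate block within each genotype, chosen after seeing the data, called 17, against 3.14%. On imbibition it called 33 in Col-0 and 38 in the libraries labelled erf4, against 60.1 and 62.8%. That block assumes pairing in Col-0 too, where same-numbered pairs correlated weakly (0.066 to 0.215). Libraries of the 2 genotypes with different numbers reached 0.354, so these values do not establish the pairing. With the replicate number as a block over all libraries the counts were 1 and 0 between genotypes, 27 and 34 on imbibition and 0 for the interaction. Over all genes the shares were 1.08 and 0.0318%, 52.1 and 55.0%, and 0.0%. It changed no call between the genotypes. With the groups compared alone, 26 rather than 17 members were lower in imbibed erf4 at an unadjusted p under 0.05. Of 106 member results, DESeq2 kept 98 and the suffix letter as a covariate 99 on their side of the threshold. The causes were not tested. With 31787283 counts or more per library, members under the floor of 3 counts could not be compared.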
